A study of Mus musculus with 2 samples.

Results

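The 10 genes described here carry iron metabolism and metal binding in the liver: Hamp, Hamp2, Tfr2, Trf, Fth1, Ftl1, Slc40a1, Slc39a14, Mt1 and Mt2. They were chosen by symbol, and 10 of 10 were found among the 31053 genes of the deposited feature lists. Their levels were read in 2 single-cell RNA-seq libraries of C57BL/6 mouse liver, 1 from mice kept 6.5 weeks on chow and 1 from mice kept 6.5 weeks on a diet rich in fructose, fat and cholesterol that produces non-alcoholic steatohepatitis (NASH). Livers of both groups were dissociated with collagenase and fractionated on Percoll to collect hepatocytes of several densities together with the other cells. No genetic change is named for either group, and the sources used here do not say how many mice went into a library.

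Hepcidin, the product of Hamp, is a peptide hormone that hepatocytes secrete, and it makes cells withdraw and degrade ferroportin, the iron exporter encoded by Slc40a1. Hepatocytes switch Hamp on when bone morphogenetic proteins (BMPs) from the liver endothelium signal that iron is plentiful, and when interleukin 6 signals inflammation. Kupffer cells, the resident macrophages, take up old red cells and return their iron to plasma through ferroportin, where transferrin carries it. Ferritin stores iron in both cell types, and metallothioneins bind zinc and copper.

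Hamp (ENSMUSG00000050440, chr7:30942368-30944032, minus strand) and its duplicate Hamp2 (ENSMUSG00000056978, chr7:30922372-30924681, minus strand) lie side by side in GRCm38. Their promoters are shown because the genes went opposite ways between the diets. The 250 bases before each RefSeq start (GRCm38.p6, minus strand, chr7:30944030-30944279 and chr7:30924182-30924431) are printed 5′ to 3′, with matches to GGCGCC, the core that BMP signalling uses in Hamp, and to TTCNNNGAA, the core of a STAT site, in capitals.
Hamp: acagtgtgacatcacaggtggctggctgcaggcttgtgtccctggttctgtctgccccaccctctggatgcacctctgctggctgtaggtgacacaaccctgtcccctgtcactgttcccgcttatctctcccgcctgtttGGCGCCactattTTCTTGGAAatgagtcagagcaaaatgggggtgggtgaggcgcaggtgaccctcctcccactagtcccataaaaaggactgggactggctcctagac
Hamp2: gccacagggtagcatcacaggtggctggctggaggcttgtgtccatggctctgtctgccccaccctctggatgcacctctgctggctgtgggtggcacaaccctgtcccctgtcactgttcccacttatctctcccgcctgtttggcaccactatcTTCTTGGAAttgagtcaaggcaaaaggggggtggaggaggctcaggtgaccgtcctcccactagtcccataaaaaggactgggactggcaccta
The windows were identical at 227 of 247 aligned bases (91.9%). The STAT core stood in both, from base −97 in Hamp and from base −94 in Hamp2. The BMP core stood in Hamp from base −109, and the aligned letters of Hamp2 differed from it by 1 substitution, G4A, counted from 1 at the 5′ end of the Hamp core. Searched on both strands in 32851 RefSeq promoter windows, each 250 bases before to 50 after a start, GGCGCC was found in 11.9% and TTCNNNGAA in 8.30%. A match describes letters and shows no binding.

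Mt1 (ENSMUSG00000031765, chr8:94179082-94180327) and Mt2 (ENSMUSG00000031762, chr8:94172664-94173568) are neighbours on the plus strand. Their promoters are shown because both genes are classic targets of the zinc sensor MTF1, which binds metal-responsive elements. Matches to the element's core, TGCACNC or TGCGCNC on either strand, are in capitals in the 250 bases before each RefSeq start (GRCm38.p6, plus strand, chr8:94178839-94179088 and chr8:94172368-94172617). In Mt2 the capitals also mark a match to TGACNNNGC, the antioxidant response core.
Mt1: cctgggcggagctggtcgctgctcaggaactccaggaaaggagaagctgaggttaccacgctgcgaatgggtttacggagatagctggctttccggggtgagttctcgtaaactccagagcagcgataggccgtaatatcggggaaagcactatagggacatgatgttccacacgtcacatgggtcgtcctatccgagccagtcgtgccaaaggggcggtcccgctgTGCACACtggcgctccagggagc
Mt2: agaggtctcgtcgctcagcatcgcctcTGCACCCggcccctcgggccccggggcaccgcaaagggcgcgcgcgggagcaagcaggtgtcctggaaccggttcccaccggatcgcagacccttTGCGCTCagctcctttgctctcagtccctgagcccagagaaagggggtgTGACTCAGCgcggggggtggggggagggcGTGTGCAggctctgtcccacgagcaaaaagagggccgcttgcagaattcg
A further stretch of 30 bases after the Mt1 start holds 2 more cores.
Mt1, from base 3 after the start: TGCACTCcgcccgaaaagTGCGCTCggctc
With the 50 bases after each start included, Mt1 held 3 such cores and Mt2 held 4. Of the 32851 windows, 25.7% held at least 1 core, 1.97% at least 3 and 0.518% at least 4, and 12.4% held the antioxidant core. The windows before the Mt1 and Mt2 starts were identical at 53.4% of their aligned bases. This value and the core counts depend on the RefSeq starts used. The Mt2 window ends at 94172617, ahead of the GENCODE start of the gene at 94172664. The Mt1 window ends at 94179088, past the GENCODE start at 94179082, so the windows may be offset from each other.

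The messages of Fth1, Ftl1 and Slc40a1 carry an iron-responsive element in their leaders, a hairpin to which iron regulatory proteins bind when iron is scarce, so that translation stops without a change in the message. It is shown because RNA counts, the only readout here, do not see that step. The leaders of the GENCODE transcripts were searched for the element's core, a C, any 5 bases, CAGTG and 1 more base. The bulged C and the loop CAGTG are in capitals.
Fth1: gtttcctgCttcaaCAGTGcttgaacgg
Ftl1: gtgtcttgCttcaaCAGTGtttgaacgg
Slc40a1: tccaacttCagctaCAGTGttagctaag
Of 20696 genes with an annotated leader, 12.4% held a match, and the transcripts used for the other 7 members held none. Fth1 lies at chr19:9980598-9985098 on the plus strand, Ftl1 at chr7:45457944-45459884 and Slc40a1 at chr1:45908068-45926523, both on the minus strand. Tfr2 lies at chr5:137569840-137587481 on the plus strand, and Trf at chr9:103204001-103230444 and Slc39a14 at chr14:70303469-70351425 on the minus strand (GRCm38).

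The libraries were unequal. Chow had 71635757 UMIs (unique molecular identifiers, 1 for each captured RNA molecule) over 7359 barcodes, and NASH 39440182 over 5881, with 69 barcodes shared, 0.938% and 1.17% of each. After filtering, 4326 and 2369 barcodes were kept. Hepatocytes were the barcodes of at least 5000 UMIs that passed no gate on another cell type's markers: 2000 in chow and 1079 in NASH, whose median depths were 25805 and 20503 UMIs and whose median mitochondrial shares were 18.4% and 23.3%. All 8 hepatocyte markers were read in them, at a summed 59960 CPM (UMIs scaled to a total of 1000000) in chow, where the 11 Kupffer markers summed to 2.24 CPM. Barcodes gated on Kupffer markers numbered 61 and 38, and 6 of their 10 leading genes were Kupffer markers in each library. Barcodes gated on endothelial markers numbered 54 and 45, with 5 of 10. All 10 T and NK cell markers were at 0 in both classes. The gates chose and excluded barcodes by these same Kupffer, endothelial, T and NK cell markers. Their values therefore describe the gates and are no independent check of the classes. No doublet caller was used, and barcodes that passed several gates (25 and 24) were left out. With 1 library a diet there is no test between diets. Intervals are exact 95% and cover counting error only, not the spread between mice. A level is in CPM, and since a 3′ kit reads 1 UMI per molecule it was not divided by transcript length.

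The hepcidin gene was lower and its duplicate higher in the NASH library. In hepatocytes Hamp stood at 3920 CPM in chow (201066 UMIs, interval 3903 to 3937) and at 1511 CPM in NASH (34591 UMIs, 1495 to 1527). NASH was thus the lower library, 2.59-fold (2.57 to 2.62), a log2 ratio of −1.37. Its duplicate Hamp2 went the other way, from 5.77 CPM (296 UMIs, 5.13 to 6.47) to 27.3 CPM (626 UMIs, 25.2 to 29.6), 4.74-fold higher in NASH (4.12 to 5.46). The 2 transcripts are 94.6% identical over their aligned bases and share 0 of 331 stretches of 90 bases. How the counting treated reads of near-identical copies is not stated, so the low level of Hamp2 is uncertain.

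Here and in what follows, genes are counted as 2-fold or 1.5-fold apart by a log2 ratio with 5 CPM added to both levels, so low genes need a larger fold. Of the 10 members, 3 (Hamp, Mt1 and Mt2) were at least 2-fold lower in NASH hepatocytes and 1 (Hamp2) at least 2-fold higher, where 2.0% and 2.34% of the 6444 genes read at 10 CPM or more were so, 4.35% in either direction. Hamp2, at 5.77 CPM in chow and 27.3 CPM in NASH, passed the 10 CPM filter only through the library where it is high. The median log2 ratio of the members was −0.36, and that of all genes 0.12.

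Of the members, Mt2 had the largest log2 ratio between diets. Mt2 stood at 2902 CPM in chow and 431 CPM in NASH, a log2 ratio of −2.74, and Mt1 at 7620 and 2767 CPM, a log2 ratio of −1.46. Both were lower in NASH, but not by the same factor. The ratio of Mt1 to Mt2 was therefore 2.63 (2.61 to 2.64) in chow hepatocytes and 6.42 (6.29 to 6.56) in NASH hepatocytes. It was higher in NASH in each of the 5 barcode classes in which it was taken, from 5.39 to 12.5 against 2.63 to 3.63 in chow. These are not independent cell types, since they include ungated barcodes of under 5000 UMIs, and hepatocyte RNA reaches Kupffer and endothelial barcodes. In NASH Kupffer barcodes Mt2 rested on 8 UMIs, at 1.35 times the level that hepatocyte RNA would bring.

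The carriers and sensors differed less. Transferrin (Trf), the plasma carrier of iron, stood at 10548 CPM in chow and 5769 CPM in NASH, a log2 ratio of −0.87, just short of 2-fold. Slc39a14, a zinc and iron importer also called ZIP14, stood at 230 and 169 CPM (−0.43), and Tfr2, the transferrin receptor through which hepatocytes sense iron-loaded transferrin, at 253 and 207 CPM (−0.28). Each of these 3 was lower in NASH. The storage and export genes were higher in NASH by less than 2-fold. The ferritin heavy chain Fth1 stood at 2645 and 3715 CPM (0.49), the ferritin light chain Ftl1 at 2524 and 3568 CPM (0.50) and Slc40a1 at 52.7 and 61.6 CPM (0.21). The ratio of Ftl1 to Fth1 was 0.954 (0.947 to 0.962) in chow and 0.961 (0.951 to 0.970) in NASH, so the ratio of the chains was nearly the same in both libraries. Counts of Ftl1 can be shared with its processed copy Ftl1-ps1, which was read at 28.2 and 33.1 CPM.

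**Figure D1:**
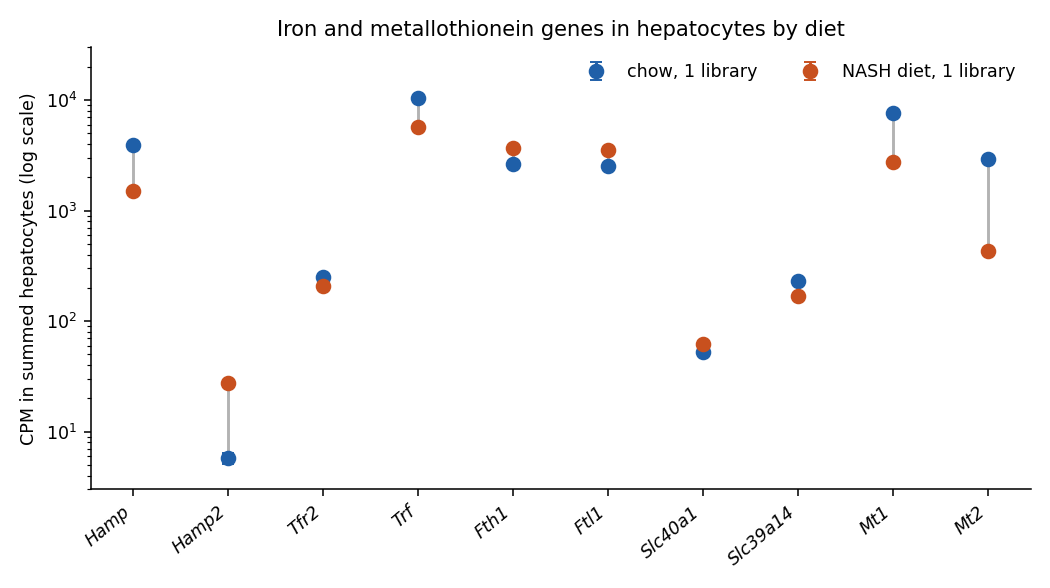
Level of the 10 members in summed hepatocytes of the chow library (blue) and the NASH diet library (orange), in CPM on a log scale, 1 point a library, with exact 95% counting intervals that are mostly smaller than the points. Hamp, Trf, Mt1 and Mt2 lie lower in NASH, and Hamp2 lies higher, at 27.3 against 5.77 CPM.

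Other genes of the same pathways were read beside the members. Of the 13 genes of BMP and hepcidin signalling that passed 10 CPM, 0 were at least 2-fold higher and 2 at least 2-fold lower in NASH. These were Fgl1, a secreted protein that binds BMPs, at 1297 and 172 CPM (log2 −2.88), and Id1, a transcription regulator that BMP signals induce, at 26.2 and 8.30 CPM (−1.23). Smad1, which relays the BMP signal, had −0.88 (a fold of 0.471 without the added 5 CPM), and its inhibitor Smad7 −0.62. The median of that list was −0.01, against 0.12 for all genes.

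Of the 11 iron uptake, export and storage genes that passed, 3 were lower and 0 higher by the same measure. Lcn2, which binds bacterial iron carriers, stood at 2140 and 105 CPM (−4.29), the metalloreductase Steap4 at 868 and 235 CPM (−1.86) and Cp, the ferroxidase ceruloplasmin, at 2411 and 935 CPM (−1.36). Bdh2 had 0.95 (a fold of 2.52 without the added 5 CPM). Among 6 genes of cellular iron and oxygen sensing, 0 passed 2-fold in either direction. Those with the largest log2 ratios were Egln1 (0.57), Hif1a (−0.30) and Epas1 (0.13) of oxygen sensing and Aco1 (0.37) of iron sensing. Of 14 heme genes, 1 was higher, the rate-limiting heme synthesis enzyme Alas1, at 84.5 and 184 CPM (1.08), and 2 were lower, the heme binder Hpx at 13244 and 2883 CPM (−2.20) and the hemoglobin binder Hp at 10042 and 2228 CPM (−2.17). Cpox, another heme synthesis enzyme, had 0.84. Of 13 zinc and copper genes, 1 was lower, the manganese exporter Slc30a10, at 43.4 and 14.9 CPM (−1.28), and 0 were higher. Ccs, Slc30a1 and Slc30a5 followed with 0.54, −0.42 and −0.40.

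Acute phase genes, which interleukin 6 drives in hepatocytes as it does Hamp, moved with these differences. Of the 16 in that list, 12 were at least 2-fold lower in NASH and 0 higher, with a median log2 ratio of −1.73. Saa2 stood at 17621 CPM in chow and 288 CPM in NASH (−5.91), and Saa3, Saa1 and Orm2 had −5.30, −4.51 and −4.36. The Saa and Orm genes have near-identical copies, so their single levels are uncertain. The chow library thus held the higher level of both the acute phase list and Hamp, Mt1 and Mt2, and the part of one in the other was not tested.

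Depth and mitochondrial share also moved with the members. Barcodes of 5000 to 10000 UMIs held 7257 CPM of Hamp in chow and 2632 CPM in NASH, against 3789 and 1523 CPM in barcodes of 20000 to 40000 UMIs, and Mt1 held 13115 and 4614 against 7558 and 2817 CPM. The shallower barcodes also had the lower median mitochondrial share, 4.72% in chow and 12.2% in NASH against 18.3% and 22.6%, so depth and mitochondrial share cannot be told apart here. NASH was lower in Hamp, Mt1, Mt2 and Trf in each of the 4 depth ranges, and higher in Hamp2, Fth1 and Ftl1 in each of them. Among hepatocytes limited to 10000 to 40000 UMIs and 10 to 30% mitochondrial UMIs, 1654 in chow and 841 in NASH, a comparison added after the data were seen, median depth was still 26198 and 21591 UMIs and the median mitochondrial share 18.8% and 24.3%. The log2 ratio there was −1.55 for Hamp, −1.57 for Mt1, −2.78 for Mt2 and 1.49 for Hamp2. Under a mitochondrial limit of 10%, which left 157 and 126 hepatocytes, that of Hamp was −0.85 and that of Slc40a1 1.09.

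**Figure D2:**
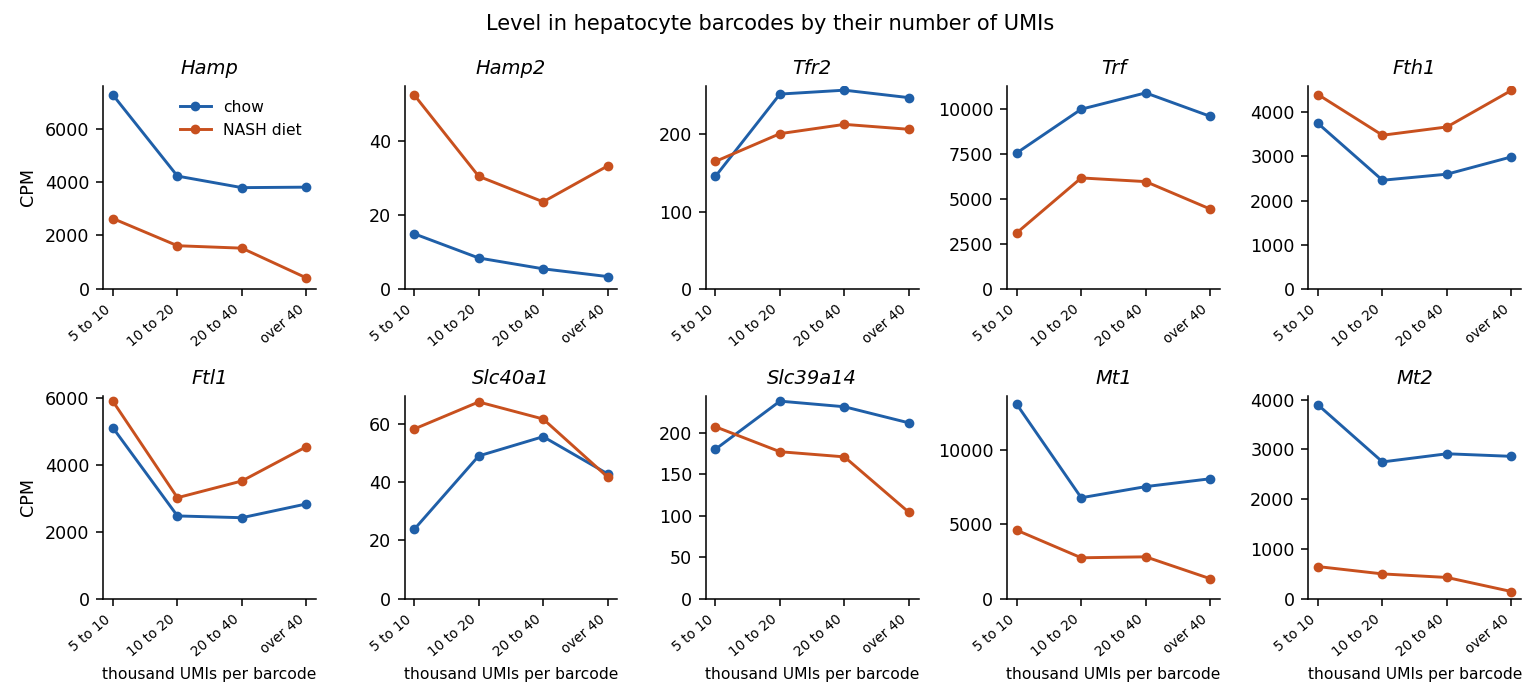
Level of each member (CPM, vertical axis from 0) in hepatocyte barcodes grouped by their number of UMIs (horizontal axis, UMIs per barcode), in chow (blue) and NASH (orange). Hamp, Mt1 and Ftl1 stand highest in the shallowest barcodes of both libraries, while the orange points of Hamp, Mt1, Mt2 and Trf lie under the blue ones in each of the 4 ranges.

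The liver lobule runs from the portal vein to the central vein, and hepatocytes differ along it. Hepatocytes were ordered within each library by a score from 10 pericentral and 10 periportal genes, none of them a member, and split into 3 ranges of equal barcode number called periportal, midlobular and pericentral. The boundaries of the score lay at 0.111 and 0.641 in chow and at 0.0965 and 0.44 in NASH, so a range does not cover the same scores in both libraries. These are ranges of a score and not cell types: 391 periportal chow and 209 periportal NASH hepatocytes lay within 0.05 of a boundary. Median depth was 26821, 24801 and 25574 UMIs in chow and 19266, 19664 and 23444 in NASH, so pericentral NASH hepatocytes were the deepest of that library.

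In chow, the exporter, the carrier and Mt1 were higher on the periportal side. Slc40a1 stood at 72.2 CPM in the periportal, 51.7 in the midlobular and 33.8 in the pericentral range, 2.14-fold (1.94 to 2.36) higher in the periportal one. Trf stood at 12481, 11339 and 7847 CPM, 1.59-fold (1.58 to 1.6), and Mt1 at 8534, 8786 and 5602 CPM, 1.52-fold (1.51 to 1.54). These were the 3 of 10 members past 1.5-fold, where 8.85% of 6294 genes were in chow, 3.42% in that direction and 5.43% in the other. Under the 10% mitochondrial limit the log2 ratio of Slc40a1, pericentral over periportal, was 0.081 in place of −0.99. That of Mt1 was −0.61 and missed 1.5-fold in 4 of 14 alternatives, at −0.42 to −0.58. Hamp was nearly even, at 3960, 4275 and 3547 CPM. Ftl1, Fth1 and Tfr2 leaned to the pericentral side, with log2 ratios of 0.33, 0.19 and 0.19.

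In NASH, Hamp and the metallothioneins differed most between the zone ends. Hamp stood at 2056, 1886 and 769 CPM from periportal to pericentral, 2.67-fold (2.60 to 2.75) lower at the pericentral end. Mt1 stood at 4217, 3434 and 1064 CPM (3.96-fold) and Mt2 at 619, 588 and 151 CPM (4.09-fold). These were the 3 of 10 members past 1.5-fold, where 13.7% of 6600 genes were in NASH, 3.62% in that direction and 10.1% in the other. Slc40a1 stood at 68.1, 71.2 and 48.7 CPM and Trf at 6420, 6560 and 4601 CPM, again lowest in the pericentral range. Tfr2, at 181, 211 and 225 CPM, was again highest there. In the hepatocytes of 10000 to 40000 UMIs the log2 ratios across zones were −0.85 for Hamp, −1.46 for Mt1 and −1.63 for Mt2, against −1.41, −1.98 and −2.0 over all, and under the 10% mitochondrial limit that of Hamp was −0.48. With 1 set of boundaries for both libraries the ratios of Hamp, Mt1 and Mt2 were −1.80, −2.16 and −2.34 in NASH.

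For Hamp, Mt1 and Mt2 the difference between diets was larger at the pericentral end. For Hamp the log2 ratio of NASH over chow was −0.94 in the periportal and −2.20 in the pericentral range, for Mt1 −1.02 and −2.39, and for Mt2 −2.34 and −3.90. With 1 library a diet this difference of differences was not tested. In the most pericentral of 5 bins of equal barcode number Hamp stood at 3236 CPM in chow and 292 CPM in NASH, Mt1 at 5282 and 685 CPM and Mt2 at 2171 and 54.0 CPM. Hamp2, by contrast, stood at 8.36 and 5.98 CPM there and at 5.82 and 46.8 CPM in the middle bin. Slc39a14 stood at 121 CPM in the last NASH bin and 197 CPM in the bin before it.

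**Figure D3:**
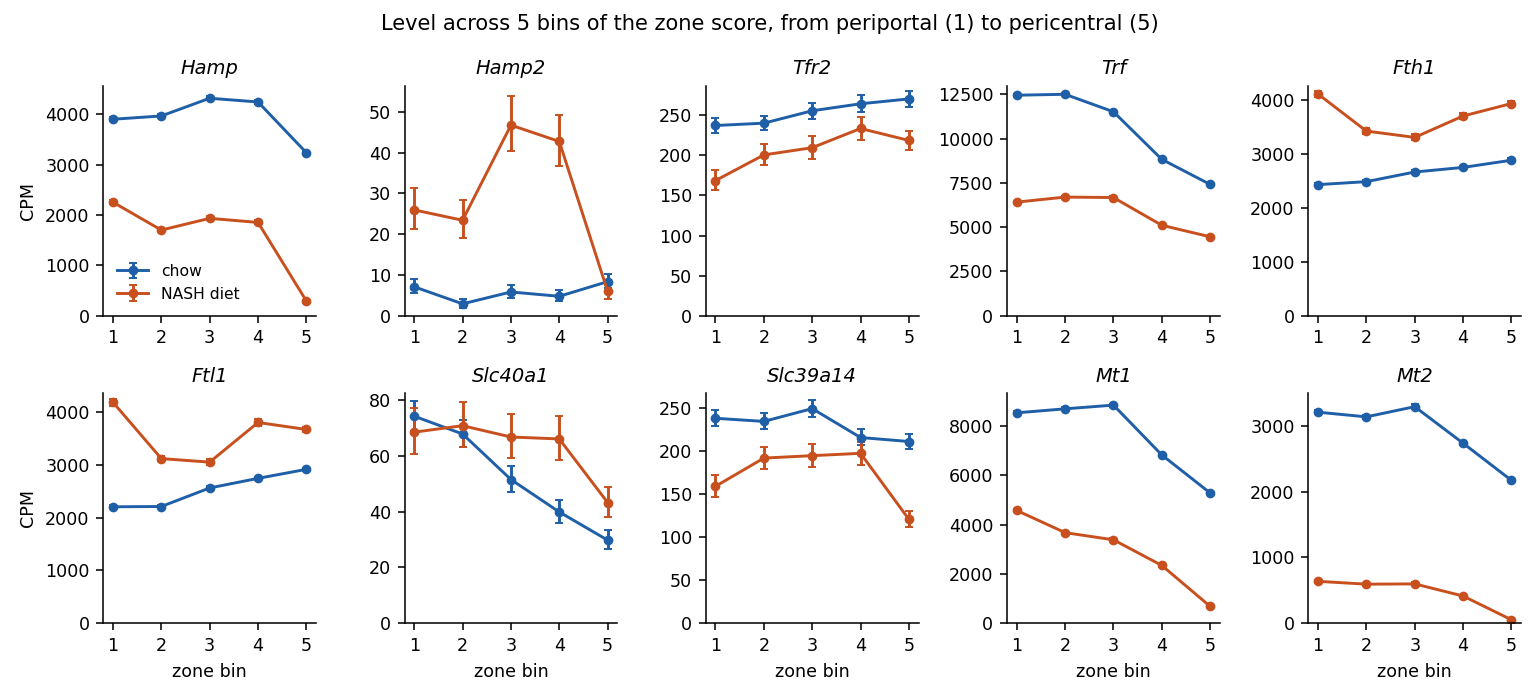
Level of each member (CPM, vertical axis from 0, with exact 95% counting intervals) in 5 bins of the zone score that hold equal numbers of barcodes, from periportal (1) to pericentral (5), in chow (blue) and NASH (orange). Hamp, Mt1 and Mt2 stand at 292, 685 and 54.0 CPM in the last NASH bin, and Slc40a1 runs from 74.1 to 29.8 CPM in chow.

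Counts per cell put the libraries in the same order. Every hepatocyte was thinned to 5000 UMIs, with none left out. The median hepatocyte held 17 UMIs of Hamp in chow and 5 in NASH, 32 and 11 of Mt1, 13 and 1 of Mt2, and 52 and 28 of Trf. Hamp was read in 98.5% of chow (97.8 to 98.9) and 78.5% of NASH hepatocytes (75.9 to 80.9), and in 59.9% (54.6 to 65.0) of pericentral NASH hepatocytes against 96.4% of pericentral chow ones. The unthinned shares were 99.8% and 90.6%. Mt2 was read in 99.3% and 64.3%, and in 38.4% (33.4 to 43.7) of pericentral NASH hepatocytes. Free RNA sets a floor to such shares: thinned to 1000 UMIs, Hamp was read in 91.6% and 54.1% of hepatocytes and in 27.7% and 8.33% of Kupffer barcodes, whose median depth was 4487 and 1297 UMIs before thinning, against 25805 and 20503 in hepatocytes.

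Hamp2 was read in few cells. It was read in 1.85% of thinned chow hepatocytes (1.31 to 2.54) and 7.51% of NASH ones (6.01 to 9.24), or 7.35% and 16.1% unthinned, and 5% of the hepatocytes held 84.1% and 71.6% of its UMIs. The same 5% share of cells held 17.4% and 29.0% of the Hamp UMIs. Hamp2 had only 296 UMIs over 2000 chow and 626 over 1079 NASH hepatocytes, and a single barcode held 8.45% and 6.55% of them. The variance of its thinned UMIs per cell, divided by their mean, was 2.57 and 3.20. For Slc40a1, the next lowest member, it was 1.04 and 1.07, so Hamp2 UMIs were less evenly spread over cells. The shares above depend on level as well as spread, and whether they mark a subset of hepatocytes was not tested.

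**Figure D4:**
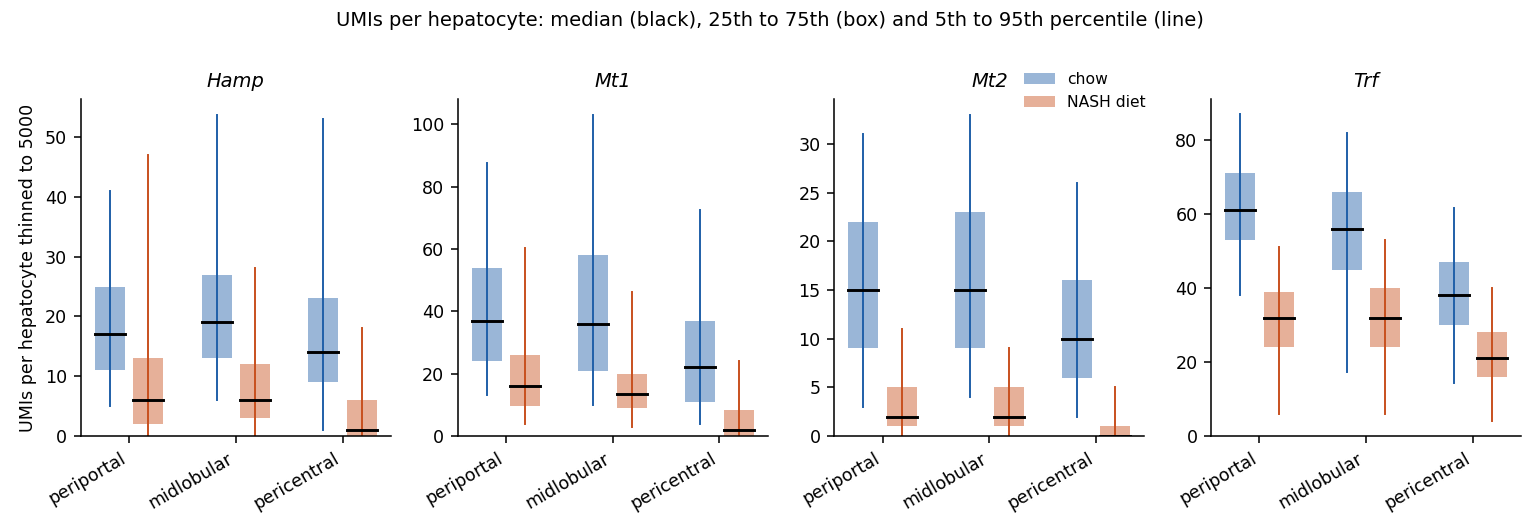
UMIs of Hamp, Mt1, Mt2 and Trf per hepatocyte thinned to 5000 UMIs (vertical axes from 0), by zone range, in chow (blue) and NASH (orange): the black line is the median, the box the 25th to 75th percentile and the thin line the 5th to 95th. In pericentral NASH hepatocytes the median is 1 UMI of Hamp, 2 of Mt1 and 0 of Mt2.

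From cell to cell, most pairs of members were weakly related. Of 45 pairs, 40 in chow and 38 in NASH had a correlation within 0.3 of 0, 3 and 4 lay above and 2 and 3 below. The 4 pairs beyond 0.3 in both libraries are given. Over the thinned hepatocytes, 2000 in chow and 1079 in NASH, the Pearson correlation of log2(UMIs + 1) was 0.77 and 0.49 for Mt1 with Mt2, 0.48 and 0.55 for Fth1 with Ftl1, 0.33 and 0.52 for Hamp with Mt1, and −0.46 and −0.44 for Trf with Ftl1. These cells share a library and its zones, depth range and free RNA, so the values are descriptions.

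The genes most like 3 of the members were sought over 10 points, the 5 zone bins of both libraries, among 2080 genes. For Hamp they were Rdh16f2 (Pearson r of log2 CPM 0.95), Cyp3a13 (0.95) and Serpina1e (0.94), for Mt1 Serpina1e (0.98), Stard4 (0.97) and Wfdc21 (0.97), and for Tfr2 they included Nr5a2 (0.99) and Maged1 (0.96). Serpina1e was named for both Hamp and Mt1, and the members Mt1 and Mt2 themselves had r of 0.97 with Hamp. The Serpina1 genes are near-identical copies, so the level of Serpina1e is uncertain.

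In Kupffer cells the members that stood out were the exporter and the ferritins. Slc40a1 was read at 2459 CPM in chow (918 UMIs, 2303 to 2623) and 2054 CPM in NASH (148 UMIs, 1737 to 2413). RNA of hepatocytes reaches other droplets, and in Kupffer barcodes the hepatocyte markers stood at 9.70% and 19.1% of their level in hepatocytes. That much hepatocyte RNA would bring 5.11 and 11.8 CPM of Slc40a1, so the level was 481 and 175 times this background. Ftl1 was read at 9250 and 8134 CPM, 37.8 and 12 times its background, and Fth1 at 8031 and 4594 CPM, 31.3 and 6.49 times. With Mt1 in NASH, at 1319 CPM and 2.5 times its background, 3 of 10 members in chow and 4 of 10 in NASH lay above it, where the lower bound had to pass 2-fold. The share of all genes above such a background is not given here, so these counts describe the members alone. With low-UMI barcodes as the source of free RNA, Mt1 in NASH stood at 0.762 times the background and was no longer above it. Fth1 then stood at 15.8 and 3.22 times, Ftl1 at 13.5 and 3.42 times and Slc40a1 at 1249 and 373 times, the 3 members above the background under both sources. Hamp, Hamp2, Tfr2, Trf, Slc39a14 and Mt2 were not above it, in either library. Trf, the most abundant of these 6, stood at 1128 and 805 CPM, 1.10 and 0.732 times the background from hepatocytes.

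Between diets, 2 of the 7 members that reached 100 CPM in Kupffer barcodes were at least 2-fold apart, Hamp (530 and 250 CPM) and Mt2 (391 and 111 CPM), both lower in NASH, where 20.8% of 1801 genes were at least 2-fold apart, 11.8% lower and 8.94% higher. Hamp stood at 1.39 and 0.867 times the hepatocyte RNA background and Mt2 at 1.39 and 1.35 times, and their hepatocyte levels were lower in NASH too. The log2 ratio of Hamp, −1.07, missed 2-fold in 3 of 8 alternatives: −0.69 under a mitochondrial limit of 80%, −0.93 over UMIs of genes not mitochondrially encoded and −0.98 with at least 5 markers. Fth1 had a log2 ratio of −0.81, Slc40a1 −0.26, Ftl1 −0.19 and Mt1 0.15, against a median of −0.20 for all genes. A single chow barcode held 23.2% of the chow Fth1 UMIs. Thinned to 1000 UMIs, Slc40a1 was read in 87.2% of 47 chow barcodes (74.3 to 95.2) and 45.8% of 24 NASH barcodes (25.6 to 67.2), against 4.90% and 6.12% of hepatocytes. The unthinned shares were 83.6% and 55.3%. A single NASH barcode held 22.3% of its Slc40a1 UMIs, and 14 of 61 chow and 14 of 38 NASH barcodes were too shallow to thin. Under a mitochondrial limit of 80%, which raised the Kupffer barcodes to 72 and 157, the log2 ratio of Slc40a1 was −1.57. In these sums, less Slc40a1 RNA per Kupffer cell and fewer Kupffer cells with it among the gated barcodes cannot be told apart.

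Heme enters Kupffer cells with old red cells, and 10 heme genes reached 100 CPM in Kupffer barcodes. Of these, 1 was at least 2-fold higher in NASH and 1 lower, near the 20.8% of all genes at least 2-fold apart. They were Alad on 12 and 8 UMIs and Slc48a1 on 46 and 4 UMIs. Each reached 100 CPM only in the library where it was higher, Alad at 32.1 and 111 CPM and Slc48a1 at 123 and 55.5 CPM. The fold interval of Slc48a1, 0.118 to 1.23, spans 1. The 10 include Hpx and Hp, which are high in hepatocytes, and no hepatocyte RNA background was taken for this list. Alad, Slc48a1 and 2 more are named after their values were seen. Hmox1, which breaks heme down and frees its iron, stood at 1947 CPM in chow and 1221 CPM in NASH Kupffer barcodes, and Cd163, the receptor for hemoglobin bound to haptoglobin, at 554 and 347 CPM. Both were lower in NASH by less than 2-fold.

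**Figure D5:**
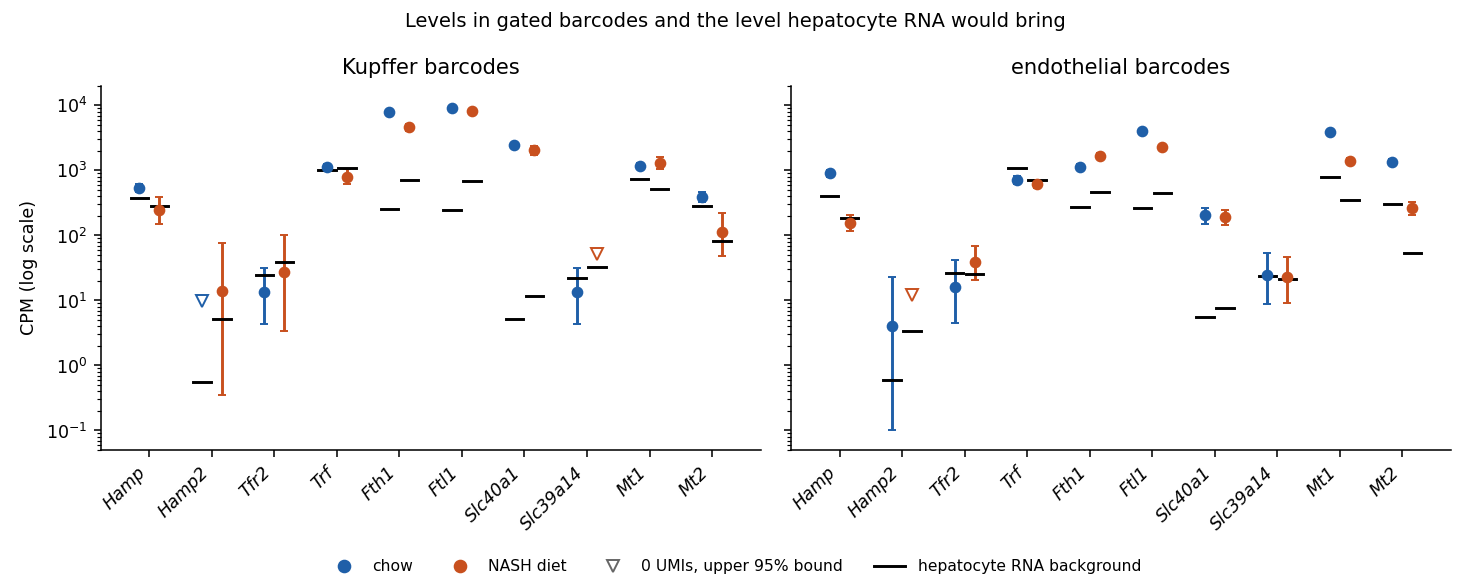
Level of each member (CPM, log scale, exact 95% counting intervals) in Kupffer and endothelial barcodes of chow (blue) and NASH (orange), with the level that hepatocyte RNA would bring as a black line and an open triangle where 0 UMIs were read. In Kupffer barcodes Slc40a1, Fth1 and Ftl1 lie far above the line. In endothelial barcodes Slc40a1 lies farthest above it in both libraries, ahead of Ftl1, Mt1, Mt2 and Fth1. Trf lies on or under the line in both classes.

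In endothelial barcodes the metallothioneins also exceeded what hepatocyte RNA would bring. Mt1 stood at 3856 CPM in chow and 1411 CPM in NASH, 4.84 and 4.08 times the hepatocyte RNA background, and Mt2 at 1340 and 262 CPM, 4.41 and 4.87 times. Ftl1 (4015 and 2285 CPM), Fth1 (1128 and 1679 CPM) and Slc40a1 (204 and 190 CPM) also lay above it, 5 of 10 members in each library. No share over all genes is given for this count either. A single barcode held 46.6% of the NASH Mt1 UMIs and 51.2% of the NASH Mt2 UMIs. With low-UMI barcodes in place of hepatocytes as the source of free RNA, 3 members in chow (Ftl1, Slc40a1 and Mt2) and 2 in NASH (Tfr2 and Slc40a1) lay above the background, and Slc40a1 was the one member above it under both sources in both libraries. Tfr2 in NASH rested on 12 UMIs.

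Of the 7 members that reached 100 CPM in endothelial barcodes, 3 were at least 2-fold lower in NASH and 0 higher, where 10.8% of 2173 genes were at least 2-fold apart, 5.66% lower and 5.15% higher. These were Hamp (904 and 157 CPM), Mt2 (log2 −2.33) and Mt1 (−1.45), of which Hamp did not pass the background rule in either library. The BMP ligands that act on Hamp in hepatocytes are made here, and they were looked at after their values were seen. Bmp2 stood at 1865 CPM in chow (458 UMIs) and 1201 CPM in NASH (367 UMIs), and Bmp6 at 281 CPM (69 UMIs, 219 to 356) and 75.3 CPM (23 UMIs, 47.7 to 113). Both were lower in NASH, with log2 ratios of −0.63 and −1.83, and in hepatocytes they were read at 0.156 to 0.218 CPM.

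The smaller classes held few barcodes. Those gated on T and NK cell markers, 6 in chow and 19 in NASH, held Fth1 at 942 and 1886 CPM and Ftl1 at 726 and 1411 CPM, the 2 members above the hepatocyte RNA background in each library. Slc40a1 was at 0 UMIs in both, which leaves an upper bound of 57.0 and 27.4 CPM, far under its level in Kupffer barcodes. Barcodes gated on neutrophil markers, 8 and 3, held Fth1 at 5762 and 14679 CPM and Ftl1 at 7653 and 5659 CPM.

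Barcodes of 500 to 2000 UMIs that passed no gate on another cell type's markers, 1949 in chow and 922 in NASH, held a different mix of the members. Against hepatocyte barcodes, Ftl1 and Mt1 were at least 2-fold higher and Tfr2, Slc40a1 and Slc39a14 at least 2-fold lower in both libraries, joined by Trf on the lower side in NASH, where 22.5% of genes in chow (11.3% higher, 11.2% lower) and 23.6% in NASH (8.9% higher, 14.7% lower) were at least 2-fold apart. Ftl1 stood at 6777 and 8839 CPM there, and Tfr2 at 61.9 and 24.2 CPM. The members that were higher, Hamp, Hamp2, Fth1, Ftl1, Mt1 and Mt2, have reference transcripts of 410 to 968 bases, and the 4 that were lower, Slc39a14, Trf, Tfr2 and Slc40a1, of 2098 to 3370 bases. The part of transcript length was not tested. Mt2 was lower in NASH in these barcodes as well, at 5422 and 661 CPM.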

How the data were processed

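The deposited matrices hold UMI counts, whole numbers without normalization, from Cell Ranger, whose version is 3.0.2 per the file headers and 3.1.0 per the submitters' processing notes, which also name Seurat and mm10. The sources used here do not give the annotation used for counting. Libraries were made with a 10x Genomics 3′ version 3 kit per the labels' protocols. The libraries' own matrices were used, and the merged one, whose chow part holds fewer UMIs, served as an alternative.

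Barcodes were kept with at least 500 UMIs, at least 200 genes and at most 30% mitochondrial UMIs. A gate needed 3 markers with a UMI and 0.1% of non-mitochondrial UMIs. Counts were summed per class and library as CPM over all UMIs. Log2 ratios carry a pseudocount of 5 CPM, which understates changes of low genes, and folds carry none. A count of genes at least 2-fold apart (1.5-fold for zones) rests on these log2 ratios and uses genes at 10 CPM or more in 1 of the groups compared, 100 CPM in gated classes. Intervals are exact (Poisson, Clopper-Pearson, conditional for folds), and median list values cover genes that passed. Named pathway genes are the 4 of each list with the largest absolute log2 ratio in hepatocytes. The 3 most alike genes had to reach 50 CPM on average. One of them is not reported here. Promoters came from RefSeq (GRCm38.p6) and positions and transcripts from GENCODE M21 (GRCm38). Promoter entries existed for 7 of the 10 members.

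The members, lists and rules were chosen with earlier results of these data known. Scripts used Python 3.11.15, numpy 2.4.6, scipy 1.17.1, pandas 2.3.3, Biopython 1.88 and matplotlib 3.10.9, and were tested on simulated data. Alternatives changed the mitochondrial limit, depth limit, denominator, matrix, pseudocount, averaging, zone lists, gates and background source.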

Additional observations from a re-analysis of the deposited data

Results flagged for a closer look

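Barcodes of 30 to 80% mitochondrial UMIs, 463 in chow and 2389 in NASH, entered the comparisons only as an alternative limit. In them 4 members were higher in NASH than in chow, and Hamp, Tfr2, Trf, Slc39a14, Mt1 and Mt2 were lower. Hamp2 stood at 31.9 CPM in NASH against 3.42 CPM in chow, Fth1 at 2927 against 1406 CPM, Ftl1 at 3157 against 1303 CPM and Slc40a1 at 57.3 against 45.5 CPM. The median log2 ratio of all genes there was 0.24, and that of Slc40a1 was 0.30, close to it. The barcodes were unlike, with a median of 3985 UMIs and 47.2% mitochondrial UMIs in chow and 1126 and 39.3% in NASH.

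For 3 members the difference between diets pointed opposite ways in 2 cell classes, with counting intervals on opposite sides of 1 in both, although the difference of the differences was not tested. The log2 ratio of NASH over chow was −0.81 for Fth1 in Kupffer barcodes against 0.49 in hepatocytes. A single chow Kupffer barcode held 23.2% of the Fth1 UMIs of its class, and over 8 alternatives the Kupffer ratio ran from −0.9995 to −0.3394. For Ftl1 it was −0.19 in Kupffer and −0.81 in endothelial barcodes against 0.50 in hepatocytes. For Slc40a1 it was −0.26 in Kupffer barcodes against 0.21 in hepatocytes. The median of all genes was −0.20 in Kupffer and −0.14 in endothelial barcodes and 0.12 in hepatocytes, so Ftl1 and Slc40a1 in Kupffer barcodes lay close to that median, and Ftl1 there was 0.14 as a mean over cells. Across zones, Ftl1 had a log2 ratio of pericentral over periportal of −0.033 in NASH against 0.33 in chow, and this was not tested either. Among hepatocytes of 10000 to 40000 UMIs the NASH value was 0.35.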

How the results depend on the processing

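No paired analysis was possible because each diet has 1 library. The count of members at least 2-fold apart between diets in hepatocytes was 4, and 3 to 4 over 12 alternatives. It was 3 with a pseudocount of 20 CPM, without Hamp2 (log2 0.88). Under a mitochondrial limit of 10% it was 4 with other members, since Hamp (−0.85) left and Slc40a1 (1.09) joined, while Mt1 and Mt2 passed in each of the 12. Across zones the chow count was 3, and 2 to 3 over 14 alternatives, and the NASH count was 3, and 3 to 5 over them. Under a mitochondrial limit of 10% the NASH count was 5 with other members. Hamp (−0.48) left, and Tfr2 (2.96), Slc39a14 (2.81) and Hamp2 joined. Hamp2 in NASH also joined with 1 set of boundaries for both libraries. In chow the 10% limit turned Slc40a1 to 0.081. There Slc40a1 and Mt1 left, and Slc39a14 (0.79) and Hamp2 (0.76) joined. That limit keeps 157 and 126 hepatocytes. In chow the zone ratio of Mt1 passed 1.5-fold in 10 of the 14. In Kupffer barcodes the diet count of 2 was 1 with CPM over UMIs of genes not mitochondrially encoded and 1 with at least 5 markers, both without Hamp, and 3 with the hepatocyte RNA background subtracted, where Trf had −4.45. Under a mitochondrial limit of 80% it was 2 with other members, since Hamp (−0.69) left and Slc40a1 (−1.57) joined. The members above the background in endothelial barcodes, 5 in each library, were 3 in chow and 2 in NASH with low-UMI barcodes as the source. Of 456 member values under alternatives, 1 reversed a called direction, the Slc40a1 value above. The cause was not tested. Kupffer values in NASH rest on few molecules, 148 UMIs for Slc40a1.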
